A study of Rattus norvegicus with 9 samples.

Results

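The genes described here are 8 of 10 that were listed as epigenetic regulators in this rat model of epilepsy, with Zmynd8 and Mthfs left out. Each was followed through the transcript paired with it, so that 8 of the 31786 transcripts in the count file are described. They are Gadd45a, Apobec1, Cbx5, Eif2c1 (now named Ago1), Ncoa1, Ezh1, Mll1 (now named Kmt2a) and Nrip1. The study listed them for their difference between PILO and CTRL animals at p under 0.01, in the same libraries used here, so that contrast is given only as a description and without a test. Levels were measured by sequencing poly-A RNA. The tissue was dorsal hippocampus of male Wistar rats, which weighed 300 to 350 g at entry. Each of the 9 libraries came from 1 animal, with 3 animals in each of 3 groups. CTRL animals ate standard chow and were given methyl scopolamine followed by saline. PILO animals also ate standard chow, and received methyl scopolamine at 1 mg/kg and then pilocarpine at 340 mg/kg, with a further 175 mg/kg where no status epilepticus followed. Pilocarpine is a muscarinic agonist that brings on status epilepticus, and spontaneous seizures can arise in the following weeks. Diazepam (8 mg/kg) stopped the status epilepticus once it had lasted 60 min. PILO+KD animals had the same pilocarpine treatment and were fed a ketogenic diet, which is rich in fat and poor in carbohydrate. Observation lasted 84 days. No group here combined the ketogenic diet with saline, so the effects of diet and of pilocarpine on PILO+KD relative to CTRL cannot be told apart.

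Epigenetic regulators set how accessible a gene is without changing its sequence. Methyl groups on cytosines, mostly in CpG dinucleotides, and methyl or acetyl groups on histone tails are written by one class of enzyme, read by a second and removed by another, and small RNAs act on the transcripts that result. In hippocampal neurons some of these regulators respond to activity, among them Gadd45a and its relatives. By role, Gadd45a and Apobec1 have been linked to active DNA demethylation, Cbx5 reads methylated histones, Ezh1 and Mll1 write histone methylation, Ncoa1 and Nrip1 are coregulators of nuclear receptors and Eif2c1 belongs to the microRNA pathway.

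Library totals ran from 9904067 to 24092617 counts, the lowest being PILO+KD replicate 3. The FC number in its label was 95, against 94 for all others. It was read here as the number of a flow cell, which the labels do not spell out. PILO replicate 3 stood apart from the rest: its 10 most abundant transcripts took 26.0% of its counts against 12.1% to 19.3% in the other 8 libraries, and its mean Spearman correlation with the others was 0.940 against 0.970 to 0.981. Levels are given as CPM (counts scaled to a common library size) after TMM scaling, which corrects library totals for composition. They were not divided by transcript length, so levels of different genes are not set against each other. The tissue was undissociated dorsal hippocampus, in which fewer cells of a type and less RNA per cell cannot be told apart. Of 22 cell type markers considered, only Gfap, an intermediate filament of astrocytes, was paired with a transcript in the sources used here. Its level was 704, 526 and 771 CPM in CTRL, 2006, 2853 and 1543 CPM in PILO and 2632, 834 and 1786 CPM in PILO+KD. Every PILO library was above every CTRL library for Gfap, and PILO+KD replicate 2 lay close to the CTRL libraries. The study had picked Gfap, among its epilepsy-related genes, for a difference between PILO and CTRL in these same libraries. No overlap of PILO and CTRL was also found in 27.4% of all transcripts tested, so nothing is read from that separation. The part of Gfap in the values below was not tested.

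Promoter sequence is shown first because methylation of CpG dinucleotides is the mark the study followed and 2 of the 8 genes have been linked to its removal. The study reported changes of this mark mainly in gene bodies and seldom at promoters. It found no association of promoter hypermethylation with lower expression, while decreased methylation, at promoters among other sites, went with higher expression. RefSeq promoters of assembly GRCr8, each 300 bases from 250 before to 50 after the annotated start, matched 6 of the 8 genes. Ezh1 and Mll1 had no entry. The 4 promoters below are those with the fewest and the most CpG dinucleotides (Apobec1 and Ncoa1), that of Gadd45a, and that of Nrip1, which has the second highest count. All lie on the minus strand, are printed in the direction of the gene and carry each CG in capitals.
Gadd45a, chr4:97486750-97487049: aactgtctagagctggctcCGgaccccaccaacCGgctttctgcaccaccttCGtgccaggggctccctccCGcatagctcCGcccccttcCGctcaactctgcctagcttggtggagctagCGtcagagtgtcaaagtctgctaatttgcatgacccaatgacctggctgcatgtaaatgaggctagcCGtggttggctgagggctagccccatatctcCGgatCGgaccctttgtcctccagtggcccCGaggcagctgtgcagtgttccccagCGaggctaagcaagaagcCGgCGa
Apobec1, chr4:157487552-157487851: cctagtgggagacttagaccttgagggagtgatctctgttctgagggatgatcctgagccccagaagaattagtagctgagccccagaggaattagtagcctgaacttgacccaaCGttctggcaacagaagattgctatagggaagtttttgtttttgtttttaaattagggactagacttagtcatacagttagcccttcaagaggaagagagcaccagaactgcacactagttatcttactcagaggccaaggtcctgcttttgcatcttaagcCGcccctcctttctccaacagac
Ncoa1, chr6:33195875-33196174: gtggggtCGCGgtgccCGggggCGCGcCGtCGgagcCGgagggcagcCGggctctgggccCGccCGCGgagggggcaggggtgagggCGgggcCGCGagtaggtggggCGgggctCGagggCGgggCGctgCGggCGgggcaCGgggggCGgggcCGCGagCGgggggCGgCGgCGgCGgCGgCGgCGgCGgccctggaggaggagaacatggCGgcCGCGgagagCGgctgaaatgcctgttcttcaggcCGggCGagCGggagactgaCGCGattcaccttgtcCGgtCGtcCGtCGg
Nrip1, chr11:28466363-28466662: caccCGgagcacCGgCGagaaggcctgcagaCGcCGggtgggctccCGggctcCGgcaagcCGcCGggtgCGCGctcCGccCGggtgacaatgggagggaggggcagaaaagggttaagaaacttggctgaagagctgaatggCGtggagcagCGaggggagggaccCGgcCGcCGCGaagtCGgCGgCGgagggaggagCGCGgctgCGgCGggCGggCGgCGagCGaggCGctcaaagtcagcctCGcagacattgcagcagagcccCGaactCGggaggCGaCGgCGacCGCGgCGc

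Apobec1 had 2 CpG dinucleotides in this window and a GC content of 46.3%, which put it at the 13.6th percentile of the 33469 rat promoters in the table for CpG number. Cbx5 had 10 (chr7:136229069-136229368, 58.5th percentile) and Gadd45a had 14 (66.5th percentile). Eif2c1 had 30 (chr5:144041575-144041874, 89.7th percentile), Nrip1 had 40 (96.8th percentile) and Ncoa1 had 47 with a GC content of 80.7% (98.7th percentile). The median promoter held 7 CpG dinucleotides and had a GC content of 51.7%. In this window the 3 genes with higher levels in PILO than CTRL thus had fewer CpG dinucleotides than the 3 matched genes with lower levels, a description over 6 genes with no test. The GC box letters GGGCGG, searched on both strands, occurred in all 6 promoters and in 33.1% of all promoters, with 7 matches in Ncoa1, 3 in Nrip1, 2 in Eif2c1 and 1 in each of the others. CCAAT was present in Gadd45a at position -94 from the start and in Eif2c1 at -87, and in 37.5% of all promoters. The octamer ATTTGCAT was found in Gadd45a alone, at position -105, and in 1.78% of all promoters, whereas TATAAA was in none of the 6 and in 14.2% of all. These are letter matches only. The RefSeq start need not be the start of the transcript that was counted, and methylation at these positions was not analysed here.

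**Figure D1:**
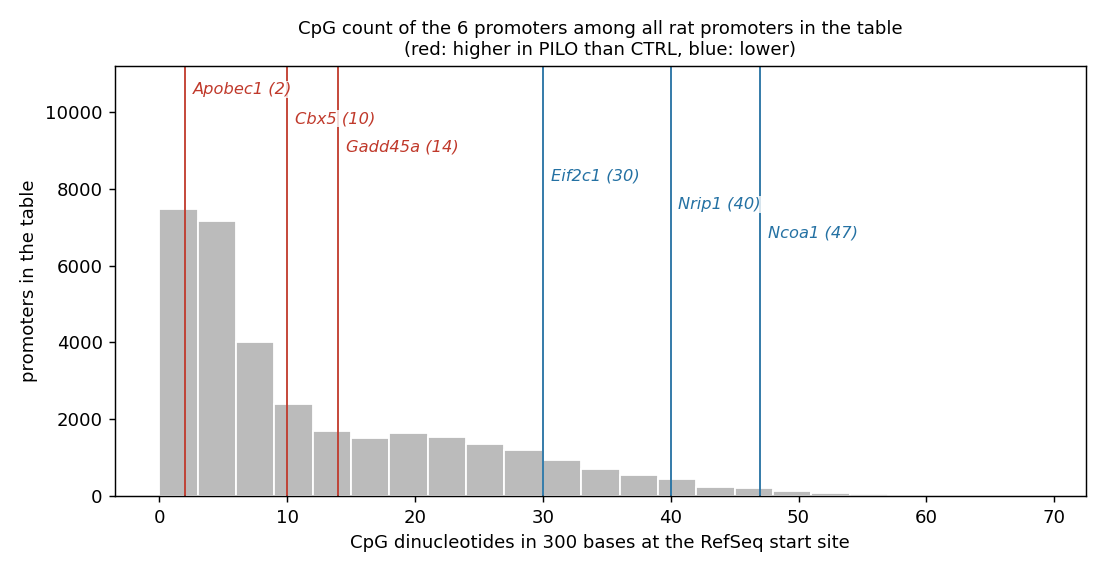
Number of CpG dinucleotides in 300 bases at the start site for all 33469 rat promoters in the RefSeq table (grey bars, in bins of 3) with the 6 matched genes as vertical lines, red for genes higher in PILO than CTRL and blue for genes lower. The red lines stand at 2, 10 and 14 and the blue lines at 30, 40 and 47.

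In PILO animals 3 of the 8 genes had higher mean levels than in CTRL (Gadd45a, Apobec1 and Cbx5) and 5 had lower levels (Eif2c1, Ncoa1, Ezh1, Mll1 and Nrip1), and for all 8 no PILO library overlapped a CTRL library. Across all 22283 transcripts tested, 27.4% had no overlap in this contrast and 5.51% had an unadjusted p under 0.01 in the edgeR quasi-likelihood fit, and nothing is read from the members' count because this contrast chose them. Relative to their levels the narrowest gaps between PILO and CTRL were those of Mll1 (30.7 CPM in the highest PILO and 31.4 CPM in the lowest CTRL library) and Cbx5 (32.2 CPM in the lowest PILO and 28.2 CPM in the highest CTRL library). The PILO+KD mean of each of the 8 genes lay between the CTRL and PILO means on the log2 scale. So did that of 95.4% of the 1228 transcripts that passed 0.01 without adjustment for PILO vs CTRL, 85% of the 6097 without overlap in that contrast and 55.6% of all transcripts tested, so the 8 of 8 is no result about these genes.

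**Figure D2:**
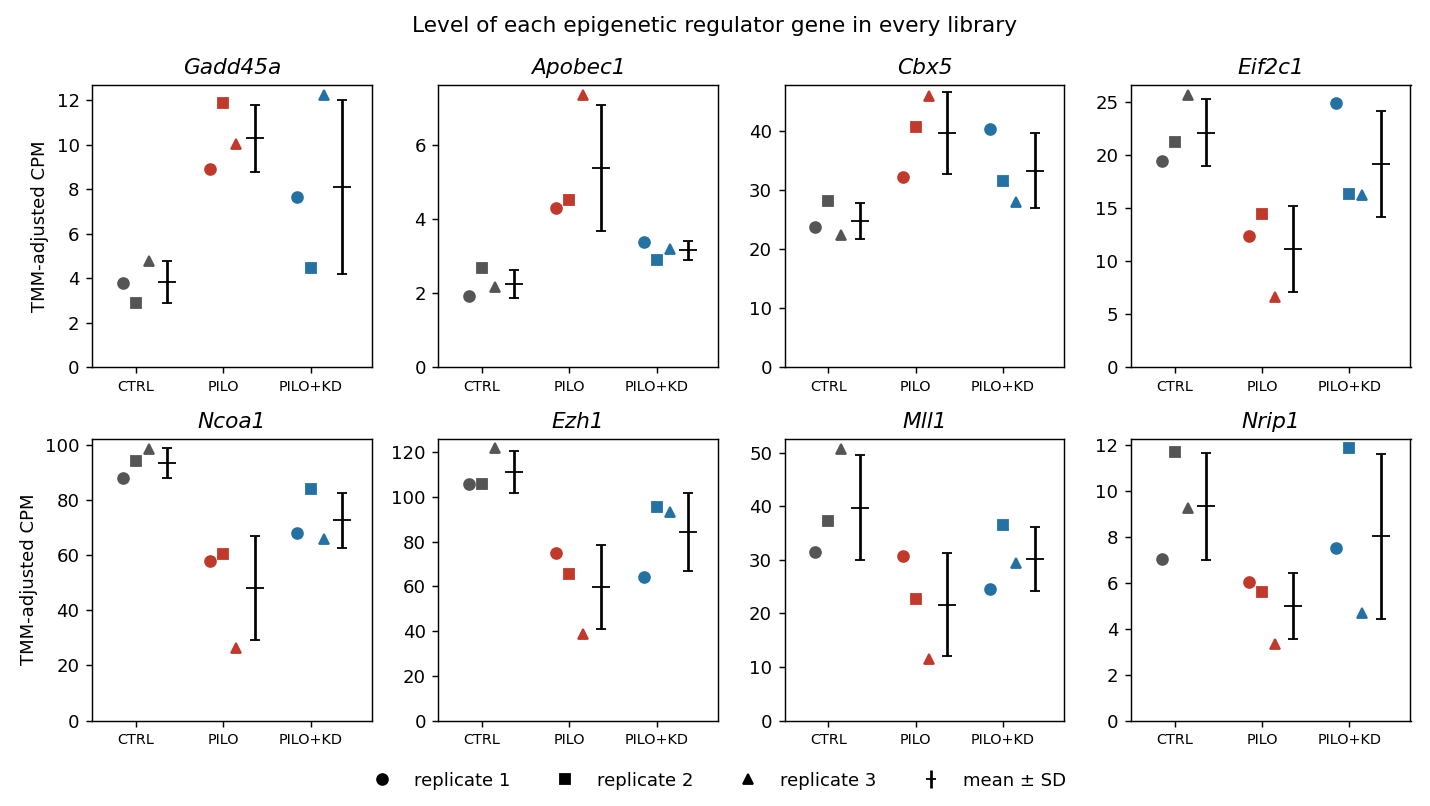
TMM-adjusted CPM of the 8 genes (vertical axes, 1 panel per gene, each from 0) in CTRL, PILO and PILO+KD; each symbol is 1 library and the bar is the group mean ± SD (n = 3). The PILO libraries lie apart from the CTRL libraries in every panel. Relative to their mean, the PILO+KD libraries are spread most for Gadd45a, from 4.43 to 12.2 CPM, and Nrip1, from 4.70 to 11.9 CPM.

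Gadd45a encodes a stress-inducible adaptor protein that has been linked to repair-based removal of methylated cytosines. Its level was 3.77, 2.88 and 4.76 CPM in CTRL replicates 1 to 3, from 78, 43 and 112 counts. It was 8.90, 11.9 and 10.1 CPM in PILO and 7.64, 4.43 and 12.2 CPM in PILO+KD. PILO was therefore higher throughout, while the PILO+KD libraries reached from inside the CTRL range (replicate 2) to above every PILO library (replicate 3). The mean was 3.80 ± 0.944 CPM in CTRL, 10.3 ± 1.51 CPM in PILO and 8.10 ± 3.91 CPM in PILO+KD (SD, n = 3 each), and the log2 difference of PILO from CTRL was 1.43 (SE 0.34). PILO+KD was 2.08-fold above CTRL (95% interval 1.25 to 3.47), with an unadjusted p of 0.00858 and an adjusted p of 0.9999 from edgeR. The adjusted p ranged from 0.155 to 1 over the alternative settings, and the log2 difference of 1.06 was 0.66 without PILO+KD replicate 3 (unadjusted p = 0.0594 from edgeR). Against PILO the PILO+KD level was 0.776-fold (0.474 to 1.27, adjusted p = 0.691), an interval that holds no difference as well as a level under 0.5-fold. This ratio turned on single libraries, with a log2 difference of -0.07 without PILO+KD replicate 2 and -0.77 without PILO+KD replicate 3. Gfap was likewise lowest of the PILO+KD libraries in replicate 2, but it was highest in replicate 1 whereas Gadd45a was highest in replicate 3. Among the other 24 of the study's 25 named genes the patterns most like Gadd45a over the 9 libraries were Npc2 (Pearson's r = 0.918 on log2 CPM) and Gfap (r = 0.904). After subtracting group means these values of r were 0.794 and 0.692.

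Apobec1 is a cytidine deaminase known for editing the apolipoprotein B messenger RNA, and deaminases of its family have been proposed to start demethylation of cytosines. Its level was low, with 34 to 126 counts per library. It stood at 1.93, 2.68 and 2.17 CPM in CTRL, 4.31, 4.53 and 7.37 CPM in PILO and 3.39, 2.89 and 3.20 CPM in PILO+KD. All 3 PILO+KD libraries lay above the highest CTRL and below the lowest PILO library, and they were the most alike of any member in that group, the highest being 1.17 times the lowest. PILO exceeded CTRL by 1.26 on the log2 scale (SE 0.28). PILO+KD was 0.587-fold of PILO (95% interval 0.387 to 0.888), with an unadjusted p of 0.0160 and an adjusted p of 0.624 from edgeR. The log2 difference was -0.77 with all libraries and -0.48 without PILO replicate 3 (unadjusted p = 0.0861 from edgeR), and the adjusted p ranged from 0.301 to 1 over the alternatives. Compared with CTRL, PILO+KD was 1.40-fold (0.915 to 2.16, adjusted p = 0.9999 from edgeR).

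Cbx5 encodes HP1α, which binds methylated histone H3 and packs heterochromatin. It was measured at 23.9, 28.2 and 22.4 CPM in CTRL, 32.2, 40.8 and 46.0 CPM in PILO and 40.4, 31.6 and 28.0 CPM in PILO+KD. Of the PILO+KD libraries, replicate 1 was inside the PILO range, replicate 3 inside the CTRL range and replicate 2 between them. Group means were 24.8 ± 3.04 CPM in CTRL, 39.7 ± 6.97 CPM in PILO and 33.4 ± 6.38 CPM in PILO+KD (SD, n = 3), and PILO was 1.60-fold of CTRL (log2 difference 0.68, SE 0.20). PILO+KD was 1.35-fold of CTRL (0.992 to 1.83, unadjusted p = 0.0554, adjusted p = 0.9999) and 0.842-fold of PILO (0.621 to 1.14, adjusted p = 0.669), both from edgeR. Neither difference passed the adjusted threshold. Without PILO+KD replicate 1 the log2 difference from CTRL went from 0.43 to 0.27 and that from PILO from -0.25 to -0.41, and without PILO replicate 3 the latter was -0.13.

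Ezh1 and Mll1 encode histone lysine methyltransferases of opposing families: Ezh1 is a catalytic subunit of the Polycomb repressive complex and is prominent in non-dividing cells, and Mll1 is a trithorax-group enzyme whose mark accompanies active genes. Ezh1 was at 106, 106 and 122 CPM in CTRL, 75.1, 65.6 and 38.8 CPM in PILO and 64.1, 95.6 and 93.2 CPM in PILO+KD. Replicate 1 of PILO+KD fell inside the PILO range and the other two between the ranges, so all 3 were below CTRL. The log2 difference of PILO from CTRL was -0.89 (SE 0.25). PILO+KD was 0.758-fold of CTRL (0.524 to 1.10, adjusted p = 0.9999 from edgeR) and 1.41-fold of PILO (0.972 to 2.04, unadjusted p = 0.0674, adjusted p = 0.624). The log2 difference from CTRL went from -0.40 to -0.24 without PILO+KD replicate 1.

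Mll1 showed the narrowest gap between the choosing groups: it was at 31.4, 37.2 and 50.7 CPM in CTRL and at 30.7, 22.8 and 11.5 CPM in PILO, so PILO replicate 1 lay just under CTRL replicate 1. In PILO+KD it was at 24.5, 36.5 and 29.3 CPM. Replicates 1 and 3 were inside the PILO range and replicate 2 inside the CTRL range. The log2 difference of PILO from CTRL was -0.88 (SE 0.32), or -0.58 without PILO replicate 3. PILO+KD was 0.757-fold of CTRL (0.471 to 1.21, adjusted p = 0.9999 from edgeR) and 1.39-fold of PILO (0.863 to 2.24, adjusted p = 0.631 from edgeR). With library quality weights in limma voom, which gave PILO replicate 3 a weight of 0.158 against 0.461 to 4.11 for the others, the log2 difference was -0.36 for PILO from CTRL and 0.02 for PILO+KD from PILO. The log2 difference of PILO+KD from CTRL went from -0.40 to -0.19 without CTRL replicate 3, and that from PILO went from 0.47 to 0.81 without PILO replicate 1 and to 0.31 without PILO+KD replicate 2.

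Ncoa1 is a coactivator of steroid and other nuclear receptors that brings acetyltransferase activity to their target genes. Its counts were 453 to 2311 per library. It was at 87.8, 94.05 and 98.3 CPM in CTRL, 57.7, 60.5 and 26.5 CPM in PILO and 68.0, 84.05 and 65.8 CPM in PILO+KD. As with Apobec1, all 3 PILO+KD libraries lay between the other 2 groups without touching either. The means were 93.4 ± 5.29, 48.2 ± 18.9 and 72.6 ± 9.96 CPM in CTRL, PILO and PILO+KD (SD, n = 3). PILO differed from CTRL by -0.95 on the log2 scale (SE 0.27), or by -0.66 without PILO replicate 3. PILO+KD was 1.505-fold of PILO (1.01 to 2.25, unadjusted p = 0.0464, adjusted p = 0.624 from edgeR), a log2 difference of 0.59 that was 0.30 without PILO replicate 3 (unadjusted p = 0.0732 from edgeR). The unadjusted p was also above 0.05 without any 1 of the PILO+KD libraries, at 0.0596 to 0.150 from edgeR. Over the alternatives its adjusted p in this contrast lay between 0.301 and 1. Relative to CTRL the PILO+KD level was 0.778-fold (0.522 to 1.16, adjusted p = 0.9999 from edgeR).

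Nrip1 is a ligand-dependent corepressor of nuclear receptors known for its control of fat and energy metabolism. It was at 7.05, 11.7 and 9.27 CPM in CTRL, 6.02, 5.62 and 3.33 CPM in PILO and 7.51, 11.9 and 4.70 CPM in PILO+KD. The PILO+KD libraries were widely spread, with replicate 3 inside the PILO range, replicate 1 inside the CTRL range and replicate 2 above every CTRL library. Replicate 3 rested on 50 counts, the lowest of the 9 libraries for this gene. PILO differed from CTRL by -0.90 on the log2 scale (SE 0.34). PILO+KD was 0.870-fold of CTRL (0.523 to 1.45, adjusted p = 0.9999 from edgeR) and 1.62-fold of PILO (0.964 to 2.72, unadjusted p = 0.0659, adjusted p = 0.624). The log2 difference from PILO, 0.69 with all libraries, was 0.30 without PILO+KD replicate 2 and 0.95 without PILO+KD replicate 3. The log2 difference from CTRL was -0.20 with all libraries and 0.053 without PILO+KD replicate 3, so its direction depended on that library, and it was -0.59 without PILO+KD replicate 2.

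Eif2c1 encodes an Argonaute protein, which holds microRNAs in the silencing complex. Its level was 19.4, 21.2 and 25.6 CPM in CTRL, 12.4, 14.4 and 6.55 CPM in PILO and 24.8, 16.3 and 16.2 CPM in PILO+KD. Every PILO+KD library was above every PILO library, and replicate 1 was inside the CTRL range. Group means were 22.1 ± 3.19 CPM in CTRL, 11.1 ± 4.08 CPM in PILO and 19.1 ± 4.97 CPM in PILO+KD (SD, n = 3), and PILO differed from CTRL by -0.99 (SE 0.28) on the log2 scale. PILO+KD was 1.72-fold of PILO (1.12 to 2.64), the largest difference between these groups among the 8 genes in this fit, with an unadjusted p of 0.0179 and an adjusted p of 0.624 from edgeR. Without PILO replicate 3 the log2 difference moved from 0.78 to 0.52 (unadjusted p = 0.0323 from edgeR), and without PILO+KD replicate 1 it was 0.54 (unadjusted p = 0.100 from edgeR). The adjusted p ranged from 0.301 to 1 over the alternatives. Against CTRL the difference was smaller, at 0.867-fold (0.568 to 1.33, adjusted p = 0.9999 from edgeR). This log2 difference of -0.21 was -0.44 without PILO+KD replicate 1 and -0.08 without CTRL replicate 3.

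**Figure D3:**
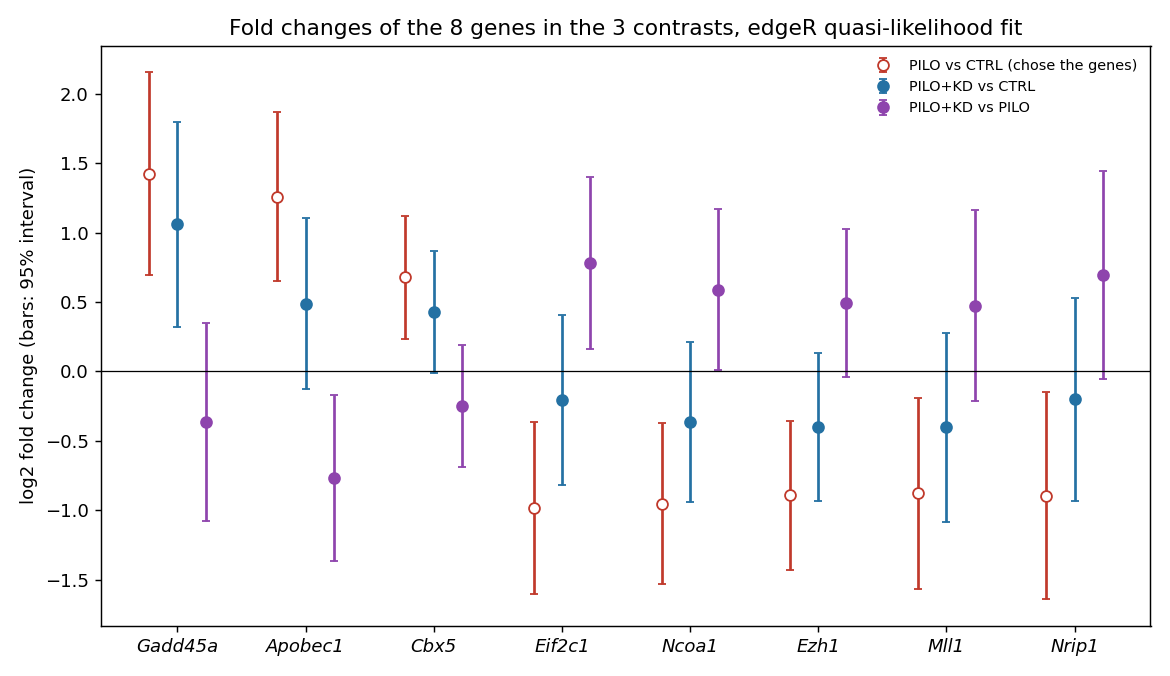
Log2 fold changes of the 8 genes in the 3 contrasts from the edgeR quasi-likelihood fit, with 95% intervals; open symbols mark PILO vs CTRL, by which the genes were chosen, and the 3 contrasts share their groups. The PILO+KD vs CTRL interval leaves out 0 for Gadd45a, and the PILO+KD vs PILO interval leaves out 0 for Apobec1, Eif2c1 and Ncoa1, before adjustment.

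Counted over the 8 genes, PILO+KD vs CTRL gave 0 at an adjusted p under 0.05 by edgeR (0% of all transcripts tested) and 1, Gadd45a, at an unadjusted p under 0.05 (3.6% of all transcripts tested). Apobec1, Ncoa1 and Ezh1, that is 3 of the 8, had no overlap between these groups (9.83% of all). The median absolute log2 difference of the members was 0.40, against 0.16 over all transcripts tested. PILO+KD vs PILO gave 0 at an adjusted p under 0.05 by edgeR (0% of all) and 3, Apobec1, Eif2c1 and Ncoa1, at an unadjusted p under 0.05 (7.19% of all). That count was 1 without PILO replicate 3 and under limma voom, and 5 without PILO replicate 1. Over all transcripts it was 1602 in the main fit, 797 without PILO replicate 3, 1784 under limma voom and 2005 without PILO replicate 1. Apobec1, Eif2c1 and Ncoa1 also had no overlap (12.2% of all). Here the median absolute log2 difference was 0.54, against 0.26 over all transcripts. Both contrasts share a group with the one that chose the genes, so neither their counts nor their median differences are an independent result about the members. DESeq2, the edgeR exact test and limma voom also gave 0 of the 8 at an adjusted p under 0.05 in both contrasts. At an unadjusted p under 0.05 the 15 epilepsy-related genes of the study, chosen on the same contrast, gave 4 in PILO+KD vs CTRL and 9 in PILO+KD vs PILO. Their median absolute log2 differences in these contrasts were 0.44 and 0.71. The difference between the lists was not tested.

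Of the 24 values of the 8 genes in the 3 PILO+KD libraries, 12 lay between the CTRL and PILO ranges, 5 inside the CTRL range, 5 inside the PILO range, 1 beyond CTRL and 1 beyond PILO. On a scale where the CTRL mean is 0 and the PILO mean is 1 in log2 CPM, the median position of the 8 genes was 0.589 in PILO+KD replicate 1, 0.199 in replicate 2 and 0.422 in replicate 3. Over the 1228 transcripts that passed 0.01 without adjustment for PILO vs CTRL the medians in the same libraries were 0.462, 0.315 and 0.521, and over the 15 epilepsy-related genes they were 0.327, 0.207 and 0.55. Both ends of this scale are values that chose the genes, so positions below 1 follow in part from the choice. Over all 22283 transcripts tested the medians were 0.206, 0.407 and 0.336. Replicate 2 thus had the lowest median position in the sets chosen on PILO vs CTRL and the highest over all transcripts. A position is a ratio to the difference of PILO from CTRL, so it does not measure how far a library lies from CTRL. The per-gene mean position ran from 0.217 to 0.687, the highest being Gadd45a.

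**Figure D4:**
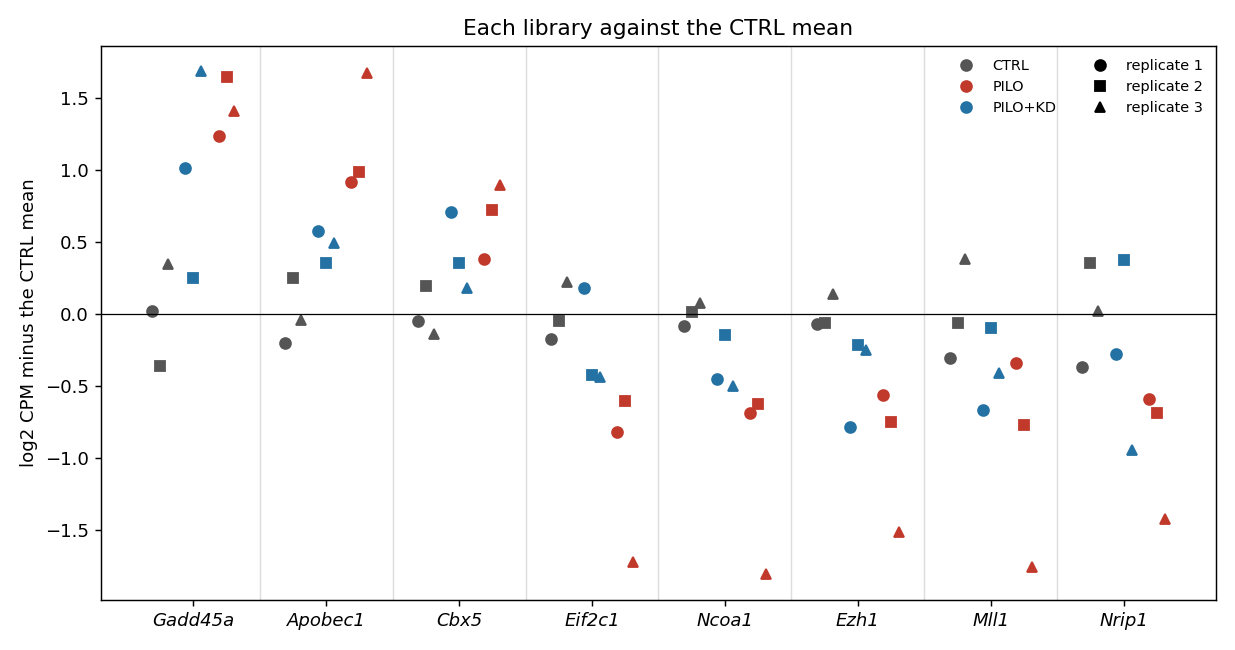
Log2 CPM of each library minus the CTRL mean of the same gene (vertical axis) for the 8 genes, with colour for the group and symbol for the replicate. PILO replicate 3 (red triangles) is the lowest of the 9 libraries for Eif2c1, Ncoa1, Ezh1, Mll1 and Nrip1 and the highest for Apobec1 and Cbx5.

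The single library PILO replicate 3 had the lowest level of the 9 for each of the 5 genes that were lower in PILO and the highest for Apobec1 and Cbx5, but not for Gadd45a. In PILO+KD vs PILO the log2 difference moved without it from 0.49 to 0.26 for Ezh1, from 0.47 to 0.17 for Mll1 and from 0.69 to 0.48 for Nrip1, none of them past the threshold either way. After subtracting group means, r over the 9 libraries ran from 0.429 to 0.925 in the 10 pairs of the 5 lowered genes, with a median of 0.672, while the median was -0.003 in the 3 pairs of raised genes and -0.456 in the 15 mixed pairs. Without PILO replicate 3 the pairs of lowered genes ran from -0.673 to 0.84 with a median of 0.25, and the median of the mixed pairs was -0.167. The libraries share depth, scaling and that 1 outlying library, so these values are a description.

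Among the study's 25 named genes, the pattern most like Ezh1 over the 9 libraries was Mll1 (r = 0.955, 0.881 without PILO replicate 3), and that most like Ncoa1 was Kcna1, a potassium channel of neurons (r = 0.982, 0.941 without that library). Eif2c1 was most like Gpr56 (r = 0.969) and next Atp2a2 (r = 0.962), an order that turned without PILO replicate 3 (r = 0.947 and 0.950), and Nrip1 most like Itpr1, a calcium release channel (r = 0.896). Apobec1 was most like Tgif1 and Cbx5, which were level at r = 0.881, and Cbx5 was most like Apobec1. Without PILO replicate 3, however, Cbx5 was nearer to Mthfs (r = 0.870) than to Apobec1 (r = 0.833). All 25 genes were picked for a difference between the same PILO and CTRL libraries, which such values of r include.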

How the data were processed

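Poly-A RNA libraries of 9 rats were read from 1 table of raw counts per Ensembl transcript. The authors aligned single reads to the rat genome rn4 with BWA and counted reads per transcript with their own script, and FastQC is named in the submitters' processing notes. Rules for strand and for reads shared between transcripts were not given in the sources used here. The deposited counts were tested in R 4.3.3 with the quasi-likelihood test of edgeR 4.0.16 (robust, TMM scaling), all 9 libraries, 3 group means and 6 residual degrees of freedom. Transcripts with at least 55 counts in total, the 30th centile, were kept, leaving 22283 of 31786 (70.1%). Adjusted p is Benjamini-Hochberg over all of them. SE is the absolute log2 difference divided by the square root of F, and CPM were logged with a prior count of 2. The labels gave each animal's group. Replicate numbers follow deposition order and only name animals. Libraries of a group came from separate animals. Alternatives were DESeq2 1.42.0, its size factors, library totals, the exact test, limma 3.58.1 voom, other filters, the 6 compared libraries and leaving out each library.

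The members, gene lists and alternatives were chosen with earlier results of these data known. Named genes were all 8 members and, for each, the 2 most alike of the study's 25 genes by Pearson's r, of which the text prints 1 or both. The file gives transcript identifiers only and none matched the RefSeq table, so lists of related epigenetic genes and the cell type markers other than Gfap were not run. DNA methylation data were not used here.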

Additional observations from a re-analysis of the deposited data

How the results depend on the processing

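No member passed an adjusted p of 0.05 in PILO+KD vs CTRL or PILO+KD vs PILO under any alternative. Of the 24 fold changes, Nrip1 in PILO+KD vs CTRL was the only one to change direction, from -0.59 to 0.053 (log2) over the fits that left out 1 library, positive without PILO+KD replicate 3. Over all transcripts, calls in PILO+KD vs CTRL numbered 0 in the edgeR quasi-likelihood fit (803 at an unadjusted p under 0.05), 28 by DESeq2, 37 by the exact test, 8 by limma voom and 0 to 8 when 1 library was left out, the 8 being without PILO+KD replicate 2 (2 without CTRL replicate 2). In PILO+KD vs PILO they numbered 0 (1602 at an unadjusted p under 0.05), 22 by DESeq2, 27 by the exact test, 1 with no filter and 0 to 1 when 1 library was left out (1 without PILO+KD replicate 1, PILO replicate 2 or PILO replicate 3). Members without overlap numbered 4 to 5 in PILO+KD vs CTRL (5 without PILO+KD replicate 2) and 3 to 5 in PILO+KD vs PILO (5 without PILO+KD replicate 3, PILO+KD replicate 1 or PILO replicate 1), as fewer libraries overlap less by construction. No share over all transcripts is given for these settings, so nothing is read from these counts. Other causes of their change were not tested. Members at an unadjusted p under 0.05 numbered 1 to 4 in PILO+KD vs CTRL (4 with only the 6 libraries compared, and Cbx5 in place of Gadd45a without PILO+KD replicate 3) and 1 to 5 in PILO+KD vs PILO. Over all transcripts these counts also moved, from 464 to 1972 in PILO+KD vs CTRL (1102 with only the 6 libraries compared) and from 797 to 3549 in PILO+KD vs PILO. In PILO vs CTRL, limma voom moved the log2 difference over 1.5 times for Mll1 (-0.88 to -0.36), Cbx5 (0.68 to 0.41) and Ezh1 (-0.89 to -0.58), and leaving out PILO replicate 3 did so for Mll1 (-0.58). In PILO+KD vs PILO, limma voom moved it over 1.5 times for Mll1 (0.47 to 0.02), Nrip1 (0.69 to 0.22), Ezh1 (0.49 to 0.20), Ncoa1 (0.59 to 0.29), Apobec1 (-0.77 to -0.46), Cbx5 (-0.25 to -0.06) and Gadd45a (-0.37 to -0.18), and not for Eif2c1 (0.78 to 0.61). In PILO+KD vs CTRL it did so for Nrip1 (-0.20 to -0.44) and Eif2c1 (-0.21 to -0.14), and library totals did so in PILO+KD vs PILO for Cbx5 (-0.13) and Gadd45a (-0.24). Scaling by library totals moved the median of all transcripts in PILO+KD vs PILO from 0.00 to 0.10 (log2). The count of members without overlap, positions over other transcripts and the likeness of patterns without PILO replicate 3 were added after seeing the data. No paired analysis was possible because replicate numbers follow deposition order and pair no animals. Depth was lowest for Apobec1, at 34 counts in PILO+KD replicate 3.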
